A study of Homo sapiens with 6 samples.

Results

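The genes described here are 10 entries of a count table of 60662 genes. They are 7 inhibitors of cyclin-dependent kinases (CDKN1A, CDKN1B, CDKN1C, CDKN2A, CDKN2B, CDKN2C and CDKN2D), the kinase CDK4, its substrate RB1, and MTAP, the gene next to CDKN2A on the short arm of chromosome 9 (9p21). They were taken by gene name, and all 10 had a row and at least 1 count. The table holds 6 mRNA libraries of TC-71, an established human Ewing sarcoma line whose labels give bone as the tissue, grown in serum-containing IMDM medium with no treatment. Of these, 3 came from cells labelled wildtype and 3 from cells labelled XG knockout, and the single comparison asks how the transcriptome differs when XG, a cell-surface glycoprotein gene that carries the Xg blood group antigen, is knocked out. The labels do not say how the knockout was made, whether the knockout cells are a clone or a pool, or whether replicates are separate cultures. The p-values therefore measure the spread between these libraries only, and a clonal difference cannot be told apart from the knockout.

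Cyclin-dependent kinases drive cells through the division cycle when bound to a cyclin, and 2 inhibitor families hold them back. The CIP/KIP proteins p21 (CDKN1A), p27 (CDKN1B) and p57 (CDKN1C) bind complexes of cyclin and kinase. The INK4 proteins p16 (CDKN2A), p15 (CDKN2B), p18 (CDKN2C) and p19 (CDKN2D) bind CDK4 and CDK6 themselves. CDK4 with a D-type cyclin phosphorylates the retinoblastoma protein RB1, which otherwise holds E2F transcription factors in check. The 9p21 region carries CDKN2A, CDKN2B and MTAP side by side and is deleted in many tumours, some Ewing sarcomas included. CDKN2A has a second start site whose product, p14ARF, restrains MDM2 and so protects p53. MTAP recycles methylthioadenosine, a by-product of polyamine synthesis that inhibits the methyltransferase PRMT5 when it accumulates.

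The libraries held between 22557187 and 31214099 counted fragments. XG stood at 45.6 ± 1.37 CPM (counts scaled to a common library size; SD, n = 3) in wildtype and at 29.6 ± 0.641 CPM (SD, n = 3) in knockout libraries, so the transcript was lower but present. Of 8 Ewing sarcoma marker genes, every one was detected in every library, the lowest being NKX2-2 at 18.0 CPM in wildtype, and CD99 passed the test, lower in knockout libraries. Of 10 markers of blood, epithelial, endothelial, fibroblast and muscle cells, 5 were abundant enough to test. KRT18 was called higher, from 2.02 ± 0.0573 to 3.26 ± 0.230 CPM (SD, n = 3), while the defining epithelial marker EPCAM had at most 8 fragments in a library. KRT8, also an epithelial marker, went from 3.11 ± 0.284 to 3.86 ± 0.326 CPM (SD, n = 3) and was not called (log2 fold change 0.31, edgeR adjusted p = 0.248). The markers summed to 43.5 to 46.1 CPM in wildtype and 43.6 to 50.5 CPM in knockout libraries, and CD3E was at 0 in all 6. The part of the KRT18 difference in the results was not tested. Genes rich in G and C were lower relative to poor ones in knockout replicates 1 and 2: the log2 difference between the upper and the lower GC tertile was -0.127 and -0.0905, against 0.0652 in knockout replicate 3 and 0.0392 to 0.0635 in wildtype. For the 9 genes that could be tested and the pathway and neighbour genes named for their low p-values, the value after a correction for this trend is given where it differed by over 1.5 times.

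Of the 10 genes, CDKN1A changed and none of the other 8 that could be tested passed the test; CDKN2A was too low to test. Genes were tested with edgeR's quasi-likelihood test, with p-values adjusted by Benjamini and Hochberg over 14425 genes and a threshold of 0.05. At that threshold 1.36% of all tested genes were called, 0.444% higher and 0.915% lower, and among the 9 genes tested here 1 was higher and none lower. The 3 libraries of one genotype did not overlap those of the other for 2 of the 9, CDKN1A and RB1, both higher in the knockout. Over all tested genes, 20.5% showed no overlap, 10.7% with the knockout higher and 9.8% with it lower. The median log2 fold change of knockout over wildtype (log2 change in what follows) of the 9 was 0.03, with 5 positive and 4 negative, and that of all tested genes was 0.0019.

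**Figure D1:**
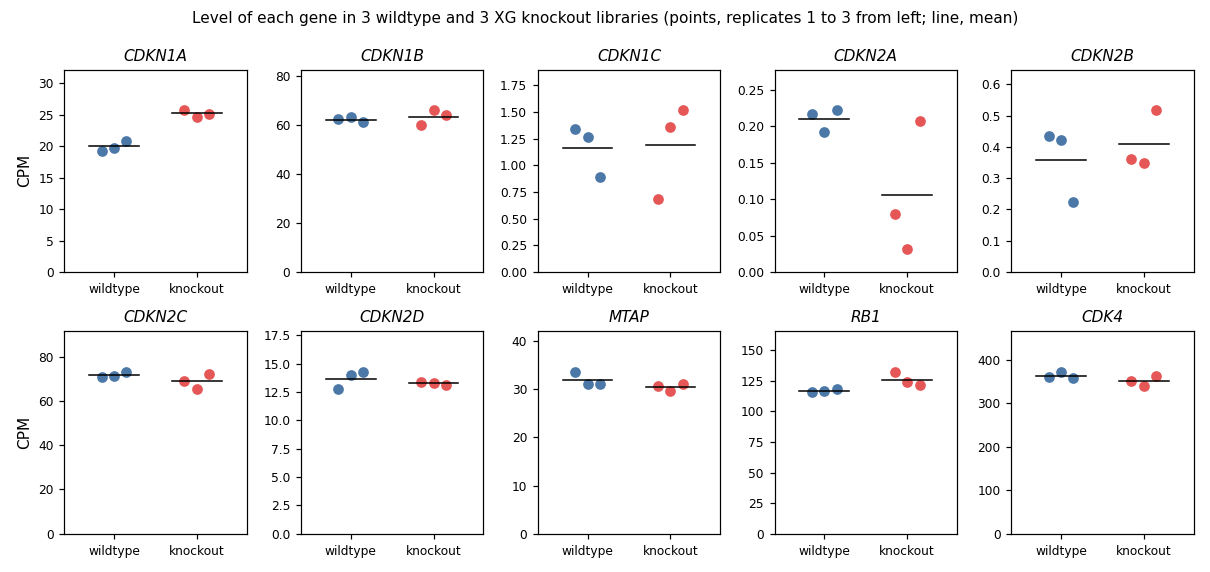
Level of each of the 10 genes in CPM (vertical axis, a separate scale for each gene, from 0) in 3 wildtype libraries (blue) and 3 XG knockout libraries (red), with replicates 1 to 3 from left to right and the mean as a line. The knockout libraries lie above all wildtype libraries for CDKN1A and RB1, and the 2 sets of points overlap for the other 8 genes.

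CDKN1A encodes p21, the CIP/KIP inhibitor best known as a transcriptional target of p53. The gene (ENSG00000124762.13) lies on the plus strand of chromosome 6 at chr6:36676460-36687339 (GRCh38). It had 534, 515 and 470 fragments in wildtype replicates 1, 2 and 3 and 641, 782 and 730 in knockout replicates 1, 2 and 3. Scaled to library size, these were 19.3, 19.8 and 20.9 CPM in wildtype against 25.7, 24.7 and 25.2 CPM in knockout libraries. The lowest knockout library stood above the highest wildtype library. The mean rose from 20.0 ± 0.818 to 25.2 ± 0.511 CPM (SD, n = 3), which is 126.2% of wildtype with a 95% interval of 116.1% to 137.2%. The log2 change was 0.34 (SE 0.0574, edgeR adjusted p = 0.00772), and its p-value ranked 28 among the 14425 genes. In a bulk sample, a change in the share of cells that express a gene and a change in RNA per cell cannot be told apart.

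The CDKN1A increase was as large with knockout replicate 3 as the only knockout library, at a log2 change of 0.34 (edgeR adjusted p = 0.00461, with the spread taken from wildtype alone), an alternative chosen after seeing the data. The transcript is GC-rich, at 58.1% against a median of 48.0% for tested genes. After GC correction the log2 change was larger, 0.40 (edgeR adjusted p = 3.01e-05). The call depended on the wildtype libraries: the edgeR adjusted p was 0.0979 without wildtype replicate 1 and 0.0601 without wildtype replicate 2, at log2 changes of 0.31 and 0.33. With GC correction it was called whichever library was left out, with adjusted p-values up to 0.00152. Over all alternatives the adjusted p ranged from 8.02e-06 to 0.0979 and the log2 change from 0.31 to 0.43. The authors' deposited table gives CDKN1A a log2 change of 0.33 and an adjusted p of 0.00522.

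**Figure D2:**
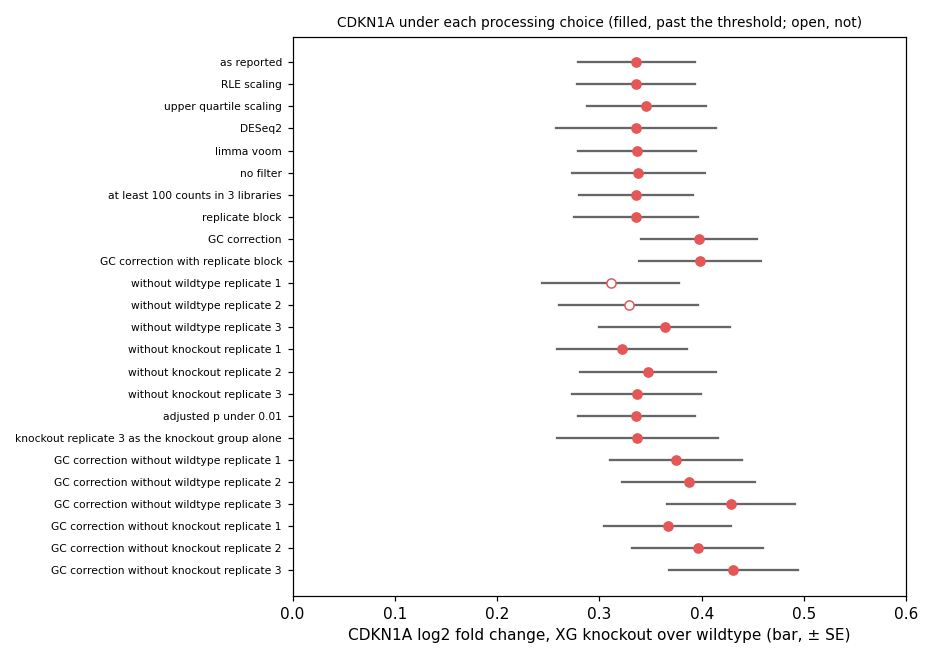
CDKN1A log2 change of XG knockout over wildtype (horizontal axis; points are estimates, bars 1 SE) under each processing choice, with filled points past the adjusted p threshold. Every estimate lies between 0.31 and 0.43, and the open points are the fits without wildtype replicate 1 and without wildtype replicate 2.

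The 250 bases ahead of a RefSeq start of CDKN1A are printed here because this is the gene of the group that changed. This start lies inside the gene span given above, and a count over the whole gene does not show which start was used. The bases are RefSeq's, at chr6:36678464-36678713 (GRCh38.p14, plus strand), 5′ to 3′, with GC boxes (GGGCGG, or CCGCCC for the other strand) in capitals.
CDKN1A: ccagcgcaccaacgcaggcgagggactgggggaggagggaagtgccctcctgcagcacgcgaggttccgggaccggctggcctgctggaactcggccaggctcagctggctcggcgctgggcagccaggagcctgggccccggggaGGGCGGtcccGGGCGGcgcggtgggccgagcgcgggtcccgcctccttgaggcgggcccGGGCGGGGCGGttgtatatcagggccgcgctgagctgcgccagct
This window holds 4 GC boxes, among them an overlapping pair near the 3′ end, 27 CpG pairs and 76.4% G and C. Of 35116 RefSeq windows of the same length, 42.64% hold at least 1 GC box, and the median window has 11 CpG pairs. These traits are not particular to the gene that changed. Among uncalled genes, a CDKN2C window held 5 GC boxes and 35 CpG pairs. The other CDKN2C windows held 0 and 1 GC boxes with 7 and 10 CpG pairs. CDKN2D held 2 and 33, CDK4 3 and 19, CDKN1B 1 and 27, and RB1, at a start inside the gene, 0 and 0. A match to these letters describes the sequence and does not show that a factor binds there. The antisense gene DINOL, which overlaps CDKN1A on the minus strand, had 2 fragments in all 6 libraries together, and counting was by strand.

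CDKN1B encodes p27, the CIP/KIP inhibitor that accumulates in resting cells. The gene (ENSG00000111276.11, chr12:12715058-12722369, plus strand) had 1726, 1649 and 1375 fragments in wildtype and 1498, 2092 and 1861 in knockout libraries. These were 62.4, 63.2 and 61.1 CPM against 60.1, 66.1 and 64.2 CPM. Knockout replicate 1 was the lowest of the 6 libraries and knockout replicate 2 the highest, so the groups overlapped. The means were 62.3 ± 1.07 and 63.5 ± 3.05 CPM (SD, n = 3), a log2 change of 0.029 (SE 0.0427, edgeR adjusted p = 0.783). The 95% interval ran from 95.9% to 108.6% of wildtype, which does not reach the CDKN1A estimate.

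CDKN1C encodes p57, an imprinted inhibitor expressed mainly from the maternal copy. The gene (ENSG00000129757.13, chr11:2883213-2885773, minus strand) had 37, 33 and 20 fragments in wildtype and 17, 43 and 44 in knockout libraries, or 1.34, 1.27 and 0.889 CPM against 0.682, 1.36 and 1.52 CPM. The knockout libraries held both the lowest and the highest value. The log2 change was 0.038 (SE 0.271, edgeR adjusted p = 0.961), with a 95% interval from 69.2% to 152% of wildtype. CDKN1C is GC-rich at 63.8%, and its log2 change was 0.14 after GC correction (edgeR adjusted p = 0.857). At this depth a change the size of that in CDKN1A was not detectable in CDKN1C.

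The 3 CIP/KIP genes were compared per length of exon, as CPM per kilobase of exon bases. By this level CDKN1B made up 77.6 ± 0.680% of the summed family in wildtype and 73.9 ± 0.982% in knockout libraries (SD, n = 3). CDKN1A made up 20.3%, 20.5% and 22.1% in wildtype replicates 1, 2 and 3 and 26.2%, 23.5% and 24.4% in the knockout ones. CDKN1C held 1.5 ± 0.304% and 1.42 ± 0.499% (SD, n = 3). The log2 ratio of CDKN1A to CDKN1B counts averaged -1.64 in wildtype and -1.33 in knockout libraries, a difference of 0.31 (exact two-sided permutation test over libraries, p = 0.1, the smallest that 3 against 3 allows). All 3 knockout ratios lay above all 3 wildtype ratios. The ratio reuses the counts given above, so this separation is not evidence apart from the CDKN1A values.

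**Figure D3:**
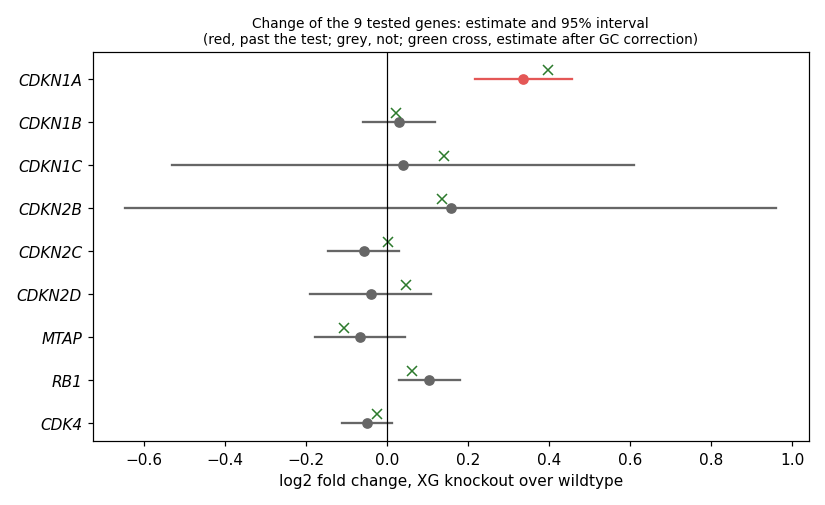
Log2 fold change of XG knockout over wildtype (horizontal axis) for the 9 tested genes, with 95% intervals as bars and the GC-corrected estimate as a green cross. The interval of CDKN1A (red) starts at 0.22; that of RB1 also lies above 0, though RB1 did not pass the test after adjustment, and the widest intervals are those of CDKN2B and CDKN1C, the tested genes with the fewest fragments.

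The INK4 family was carried almost wholly by CDKN2C and CDKN2D. CDKN2C encodes p18 (ENSG00000123080.12, chr1:50960745-50974634, plus strand). It had 1961, 1852 and 1643 fragments in wildtype and 1715, 2072 and 2093 in knockout libraries, or 70.9, 71.0 and 73.0 CPM against 68.8, 65.5 and 72.2 CPM. Knockout replicates 1 and 2 lay below the wildtype range and replicate 3 within it. The means were 71.7 ± 1.2 and 68.8 ± 3.37 CPM (SD, n = 3), a log2 change of -0.058 (SE 0.0416, edgeR adjusted p = 0.522). CDKN2C is GC-rich at 58.1%, and its log2 change was 0.0030 after GC correction.

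CDKN2D encodes p19, which shares the ankyrin repeats of the INK4 family. The gene (ENSG00000129355.7, chr19:10566460-10569059, minus strand) had 354, 364 and 321 fragments in wildtype and 334, 422 and 379 in knockout libraries. These were 12.8, 14 and 14.3 CPM against 13.4, 13.3 and 13.1 CPM, so all 3 knockout values lay within the wildtype range. The log2 change was -0.041 (SE 0.0710, edgeR adjusted p = 0.821), and 0.047 after GC correction (GC content 61.3%). Per exon length, CDKN2C made up 72.0 ± 0.900% of the INK4 sum in wildtype and 71.8 ± 1.1% in knockout libraries, and CDKN2D 27.6 ± 0.956% and 27.8 ± 1.22% (SD, n = 3).

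CDKN2A and CDKN2B, the INK4 genes of 9p21, were near the limit of detection in both genotypes. CDKN2A (ENSG00000147889.17, chr9:21967753-21995301, minus strand) had 6, 5 and 5 fragments in wildtype and 2, 1 and 6 in knockout libraries. These were 0.217, 0.192 and 0.222 CPM against 0.0803, 0.0316 and 0.207 CPM, where 3 fragments correspond to 0.0948 to 0.133 CPM depending on the library. Knockout replicates 1 and 2 lay below that limit and knockout replicate 3 within the wildtype range. CDKN2A was removed by the filter on low counts, so it has no test here. A fit with no filter gave an edgeR adjusted p of 0.720. The count is a sum over all exons of the gene and does not separate the p16 from the p14ARF transcript.

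CDKN2B encodes p15, an inhibitor induced by TGF-beta in many epithelial cells. The gene (ENSG00000147883.12, chr9:22002903-22009305, minus strand) had 12, 11 and 5 fragments in wildtype and 9, 11 and 15 in knockout libraries, or 0.434, 0.422 and 0.222 CPM against 0.361, 0.348 and 0.517 CPM. The groups overlapped. The log2 change was 0.16 (SE 0.382, edgeR adjusted p = 0.876), with a 95% interval of -0.65 to 0.96 that leaves its direction undetermined. Together CDKN2A and CDKN2B made up less than 1% of the INK4 sum per exon length in every library.

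MTAP, which lies next to CDKN2A at 9p21, was well detected. The gene (ENSG00000099810.21, chr9:21802636-21937651, plus strand) had 929, 812 and 697 fragments in wildtype and 764, 940 and 903 in knockout libraries. These were 33.6, 31.1 and 31.0 CPM against 30.7, 29.7 and 31.2 CPM. Knockout replicate 3 lay within the wildtype range and knockout replicates 1 and 2 just below it. The means were 31.9 ± 1.46 and 30.5 ± 0.738 CPM (SD, n = 3), a log2 change of -0.067 (SE 0.0524, edgeR adjusted p = 0.566). MTAP is GC-poor at 39.1%, and its log2 change was -0.11 after GC correction (edgeR adjusted p = 0.302), and the alternatives gave -0.11 to -0.027.

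The MTAP level is a lower bound, because AL359922.1, a readthrough gene annotated from the MTAP start past CDKN2B on the same strand, shares exons with it. Of 849 coding bases of the principal MTAP transcript, 347 (40.87%) also belong to another gene of that strand. Fragments that fall there match 2 genes and were left uncounted, and AL359922.1 itself had 0 counts. The counts of CDKN2A and CDKN2B are not touched by this overlap, since they are read from the minus strand.

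The windows ahead of the 9p21 starts are shown because these adjacent genes stood at different levels, MTAP well detected and CDKN2A and CDKN2B near the limit of detection. They are the 250 RefSeq bases before each start (GRCh38.p14), 5′ to 3′ on the gene's strand, with GC boxes in capitals as above. MTAP is at chr9:21802386-21802635 on the plus strand, CDKN2A at chr9:21995325-21995574 (the upstream start) and chr9:21974858-21975107 (the downstream start), and CDKN2B at chr9:22009306-22009555, the last 3 on the minus strand.
MTAP: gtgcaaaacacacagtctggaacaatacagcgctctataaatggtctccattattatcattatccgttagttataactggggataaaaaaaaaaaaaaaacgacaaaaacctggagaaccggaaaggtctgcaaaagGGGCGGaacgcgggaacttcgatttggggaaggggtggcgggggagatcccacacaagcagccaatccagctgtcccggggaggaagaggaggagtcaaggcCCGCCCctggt
CDKN2A upstream start: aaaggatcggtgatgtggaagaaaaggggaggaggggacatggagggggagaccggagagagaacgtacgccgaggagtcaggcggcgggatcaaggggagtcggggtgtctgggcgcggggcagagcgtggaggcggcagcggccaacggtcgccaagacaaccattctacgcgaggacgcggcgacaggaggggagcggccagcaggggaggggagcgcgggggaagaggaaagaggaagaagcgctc
CDKN2A downstream start: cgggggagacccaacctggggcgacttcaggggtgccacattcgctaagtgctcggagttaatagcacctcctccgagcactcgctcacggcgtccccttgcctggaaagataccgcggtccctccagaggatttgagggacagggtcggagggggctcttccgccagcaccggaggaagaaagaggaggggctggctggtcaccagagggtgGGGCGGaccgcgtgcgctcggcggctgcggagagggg
CDKN2B: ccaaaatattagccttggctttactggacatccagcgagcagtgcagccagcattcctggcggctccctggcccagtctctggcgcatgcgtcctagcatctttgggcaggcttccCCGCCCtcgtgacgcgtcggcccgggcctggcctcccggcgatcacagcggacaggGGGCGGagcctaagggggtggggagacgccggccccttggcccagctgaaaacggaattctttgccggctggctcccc
The MTAP window has 50% G and C, 11 CpG pairs and 2 GC boxes, 1 in each orientation. The CDKN2A windows each have 66.8% G and C, with 24 CpG pairs and no GC box at the upstream start and 20 CpG pairs and 1 GC box at the downstream start. The CDKN2B window has 66.4% G and C, 18 CpG pairs and 2 GC boxes. No methylation or binding was measured in these samples.

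The rest of the region was mostly without counts. From MLLT3 to TUSC1, a span of 5337 kb, the table lists 86 genes, of which 69 had no count in any library. Among 28 protein-coding genes there, 20 had none, the interferon genes of the cluster, DMRTA1, ELAVL2 and IZUMO3 among them. Between MTAP and TUSC1 lie 30 entries, and 4 had at least 10 fragments over the 6 libraries: CDKN2B-AS1 with 197, CDKN2B with 63, the pseudogene CLIC4P1 with 35 and CDKN2A with 25. MTAP had 5045. TUSC1, on the far side, was at 18.1 ± 0.0071 CPM in wildtype libraries and 17.2 ± 0.710 CPM in knockout libraries (SD, n = 3; log2 change -0.078, edgeR adjusted p = 0.572).

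CDKN2B-AS1, also known as ANRIL, is the long noncoding RNA that runs opposite to CDKN2B and overlaps the upstream start of CDKN2A. It had 32, 29 and 29 fragments in wildtype and 34, 41 and 32 in knockout libraries, more than CDKN2A and CDKN2B together in each library. Its exons hold 20420 bases, against 4329 for CDKN2A and 4000 for CDKN2B, so these fragment counts do not rank their levels per length. The means were 1.19 ± 0.0920 and 1.3 ± 0.135 CPM (SD, n = 3), and the groups overlapped (log2 change 0.082, edgeR adjusted p = 0.886). On the other side of MTAP, KLHL9, an adaptor of a ubiquitin ligase, was at 17.8 ± 0.596 and 19 ± 1.5 CPM (SD, n = 3), a log2 change of 0.091 (edgeR adjusted p = 0.544) and 0.051 after GC correction (adjusted p = 0.779). FOCAD and MLLT3, at the far end, were at 78.1 and 56.6 CPM in wildtype against 80.3 and 56.7 CPM. Of the 21 listed neighbours at 9p21, 5 were tested, none was called, and 14 had no count; 4 of the 5 were positive.

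**Figure D4:**
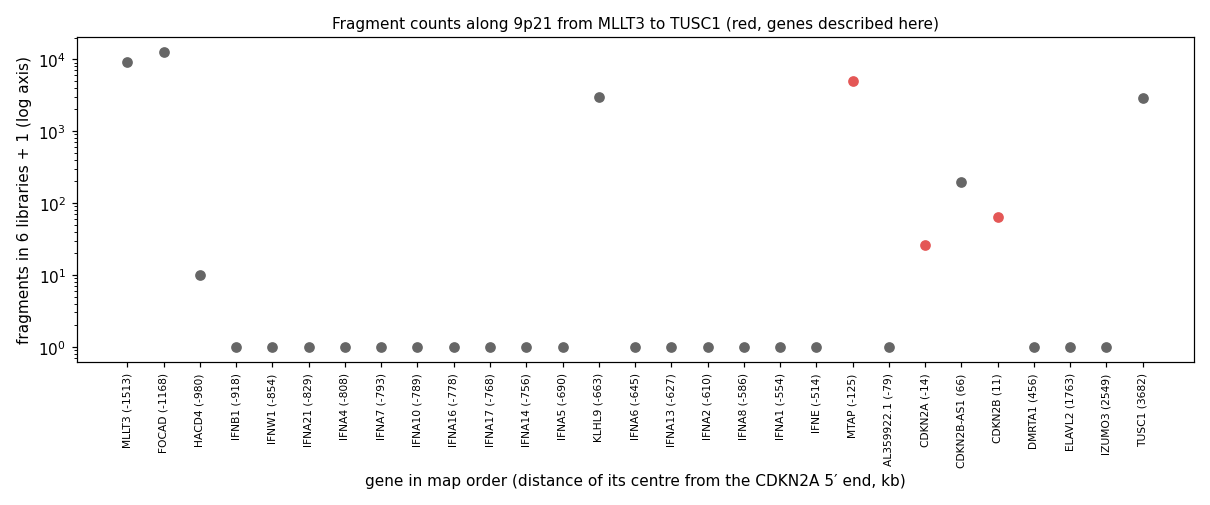
Fragments summed over the 6 libraries plus 1 (vertical log axis) for the protein-coding genes from MLLT3 to TUSC1 and for CDKN2B-AS1, in order of their start (horizontal axis, with the distance of each gene's centre from the CDKN2A 5′ end in kb); genes described here are red. MTAP stands at 5045 fragments and CDKN2A, CDKN2B-AS1 and CDKN2B at 25, 197 and 63, while points at the bottom had no count.

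CDK4, the kinase that the INK4 proteins bind, was the most abundant of the 10 genes. The gene (ENSG00000135446.17, chr12:57747727-57756013, minus strand) had 9978, 9706 and 8046 fragments in wildtype and 8768, 10742 and 10503 in knockout libraries. These were 360.8, 372.3 and 357.7 CPM against 352.0, 339.4 and 362.3 CPM. Knockout replicate 3 lay within the wildtype range and knockout replicates 1 and 2 below it. The means were 364 ± 7.68 and 351 ± 11.5 CPM (SD, n = 3), a log2 change of -0.050 (SE 0.0295, edgeR adjusted p = 0.421). With this depth the 95% interval was narrow, -0.112 to 0.012 on the log2 scale. After GC correction the log2 change was -0.024 (edgeR adjusted p = 0.700).

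CDK4 overlaps TSPAN31 by 2493 bases and MARCHF9 by 911, both on the opposite strand. TSPAN31 was at 13.3 ± 0.577 and 13.7 ± 1.26 CPM (SD, n = 3), and MARCHF9 at 14.9 ± 1.12 and 15.5 ± 0.184 CPM, with log2 changes of 0.052 and 0.051. The flanking genes AGAP2 and CYP27B1 were at 2.65 and 4.10 CPM in wildtype against 2.37 and 3.99 CPM in knockout libraries. None of 10 listed CDK4 neighbours was called, and 4 were positive. The smallest p-values belonged to METTL1, a tRNA methyltransferase, at a log2 change of -0.14 (edgeR adjusted p = 0.258; -0.084 and 0.575 after GC correction), and EEF1AKMT3, at 0.19 (adjusted p = 0.293).

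RB1, the pocket protein that CDK4 phosphorylates, was higher in each knockout library than in any wildtype library, though it did not pass the test. The gene (ENSG00000139687.15, chr13:48303726-48599436, plus strand) had 3203, 3048 and 2655 fragments in wildtype and 3293, 3920 and 3513 in knockout libraries. These were 115.8, 116.9 and 118.0 CPM against 132.2, 123.9 and 121.2 CPM. Knockout replicate 1 stood highest. The means were 117 ± 1.11 and 126 ± 5.74 CPM (SD, n = 3), a log2 change of 0.10 (SE 0.0358, 95% interval 0.029 to 0.179, edgeR adjusted p = 0.149). Its unadjusted p of 0.00927 is under 0.05, as was that of 16.8% of all tested genes.

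RB1 is GC-poor, at 37.3%, and its log2 change was 0.060 after GC correction (edgeR adjusted p = 0.318). Without knockout replicate 3 RB1 passed the threshold, at a log2 change of 0.13 (edgeR adjusted p = 0.00494). Of the fits with 1 library left out, this one called the most genes of the whole table, so the call is not particular to RB1. The knockout libraries it kept were those with the GC trend, at -0.127 and -0.0905. The same applies to each gene below that was called without knockout replicate 3. With knockout replicate 3 as the only knockout library the RB1 log2 change was 0.053. All 6 tested RB1 neighbours had positive log2 changes, with a median of 0.071, and none was called. Their lowest p-values were those of ITM2B, at a log2 change of 0.064 (edgeR adjusted p = 0.333, GC content 39.1%), and SUCLA2, at 0.077 (adjusted p = 0.348, GC content 41.0%). After GC correction they were 0.024 (edgeR adjusted p = 0.752) and 0.042 (0.589), and without knockout replicate 3 SUCLA2 was called (0.12, adjusted p = 0.0161). LPAR6 lies on the opposite strand within RB1, at 1.5 and 1.63 CPM. RCBTB2, also opposite, was at 12.2 ± 0.339 and 13 ± 0.453 CPM (SD, n = 3; log2 change 0.090, edgeR adjusted p = 0.571).

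Per kilobase of countable exon, the wildtype levels ran from CDK4 at 117.5 ± 2.48 CPM per kb to CDKN2A at 0.0486. CDKN1B and CDKN2C followed CDK4 at 24.3 ± 0.416 and 23.7 ± 0.397 CPM per kb (SD, n = 3), a gap within 2 SDs. RB1 came next at 18.1 ± 0.172, then CDKN2D at 9.09 ± 0.515, CDKN1A at 6.55 ± 0.268 and MTAP at 2.38 ± 0.109 CPM per kb. CDKN1C at 0.470 ± 0.0972 and CDKN2B at 0.0898 ± 0.0297 CPM per kb closed the order above CDKN2A. In knockout libraries CDKN1A reached 8.26 ± 0.168 CPM per kb, still below CDKN2D at 8.82 ± 0.116. The order depends on which exons are counted as length. On the length of the principal transcript alone, CDKN2C, RB1 and CDKN1B followed CDK4 at 24.7, 24.4 and 23.4 CPM per kb in wildtype, and MTAP stood at 5.21. CDKN1A was then at 8.82 CPM per kb in wildtype and 11.1 in knockout libraries, against 9.62 and 9.33 for CDKN2D, and CDKN2A (0.164) stood above CDKN2B (0.0919) in wildtype.

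Among the listed pathway and neighbour genes, TK1 and SESN2 passed the test. Over all tested genes the share called was 1.36%. The list of G1 kinases, cyclins and their regulators had 15 of 15 genes tested and none called, with 5 positive, 10 negative and a median log2 change of -0.053. CCND1 and CCND3, D-type cyclins that activate CDK4, went from 1417 ± 9.07 to 1358 ± 20.2 CPM (log2 change -0.061, edgeR adjusted p = 0.191) and from 60.7 ± 1.21 to 56.4 ± 0.523 CPM (-0.11, adjusted p = 0.173; SD, n = 3). Every knockout library lay below every wildtype library for both. CCND3 is GC-rich at 56.2%, and its log2 change was -0.062 after GC correction (edgeR adjusted p = 0.455). Of the RB family and E2F factors, 16 of 16 were tested, none was called, and 8 were positive and 8 negative. TFDP1, the dimer partner of E2F proteins, was at 272 ± 3.38 CPM in wildtype against 253 ± 7.01 CPM (SD, n = 3), with a log2 change of -0.10 (edgeR adjusted p = 0.0818). TFDP1 was called after GC correction (-0.12, adjusted p = 0.00446; 0.0346 with the replicate block as well), without knockout replicate 3 (-0.11, adjusted p = 0.00653) and with no filter (-0.10, adjusted p = 0.0455), and the alternatives spanned 0.00446 to 0.322. E2F2 had a log2 change of -0.11 (edgeR adjusted p = 0.110). It is GC-rich at 57.5%, and the value was -0.054 after GC correction (edgeR adjusted p = 0.448) and -0.11 without knockout replicate 3, where it was called (0.0240).

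Among 20 E2F target genes of DNA replication, 1 was called lower and none higher, with 17 negative and a median log2 change of -0.061. The called gene was TK1, thymidine kinase, at 182.5, 193.2 and 182.8 CPM in wildtype against 160.9, 155.1 and 177.5 CPM in knockout libraries. Knockout replicate 3 lay nearest to wildtype. The log2 change was -0.18 (SE 0.0416, edgeR adjusted p = 0.0394). TK1 is GC-rich, at 62.8%, and after GC correction its log2 change was -0.080 (edgeR adjusted p = 0.138). The call was also lost without any 1 of the wildtype libraries (adjusted p = 0.152, 0.251 and 0.160) and without knockout replicate 1 (0.118) or 2 (0.183). With knockout replicate 3 as the only knockout library the log2 change was -0.069. Over the alternatives the TK1 adjusted p ranged from 2.49e-07 to 0.451.

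The p53 targets other than CDKN1A had 23 of 24 genes tested, 1 called higher and none lower, with 15 positive, 8 negative and a median log2 change of 0.052. Of the 23, 4 had all knockout libraries above all wildtype libraries and 3 had them all below. Over all tested genes these shares were 10.7% and 9.8%. SESN2, a stress-induced inhibitor of mTORC1 signalling, stood at 19.2, 19.8 and 19.1 CPM in wildtype against 23.2, 23.8 and 26.5 CPM in knockout libraries, a log2 change of 0.34 (SE 0.0627, edgeR adjusted p = 0.0126). The groups did not overlap and knockout replicate 3 was highest. SESN2 is GC-rich at 59.5%, and its log2 change was 0.42 after GC correction (edgeR adjusted p = 9.23e-06). Without wildtype replicate 1, 2 or 3 the SESN2 log2 change was 0.34, 0.36 or 0.33 and the call was lost (edgeR adjusted p = 0.112, 0.0601 and 0.0935), and the alternatives spanned 4.71e-06 to 0.112. This gene is also a target of the amino acid response.

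Genes that control p27 were not called: of 10 genes of p27 turnover and FOXO regulation, 5 were positive and 5 negative, with a median log2 change of 0.0024. FBXW7, which marks cyclin E for degradation, had a log2 change of 0.14 (edgeR adjusted p = 0.298), and SKP1, a core subunit of its ligase, 0.063 (adjusted p = 0.348). After GC correction SKP1 had 0.030 (edgeR adjusted p = 0.656), and without knockout replicate 3 it was called (0.088, adjusted p = 0.0436). In the imprinted domain around CDKN1C, 6 of 9 genes were tested, none was called, and 5 were negative. PHLDA2, an imprinted growth inhibitor of the placenta, went from 14.2 ± 2.02 to 11.9 ± 1.64 CPM (SD, n = 3; log2 change -0.25, edgeR adjusted p = 0.224), and CD81, a tetraspanin, had -0.095 (adjusted p = 0.210). Both are GC-rich, at 63.1% and 64.9%, and after GC correction their log2 changes were -0.15 (edgeR adjusted p = 0.420) and 0.022 (0.822). Without knockout replicate 3 both were called, at -0.33 (edgeR adjusted p = 0.0156) and -0.14 (0.00208).

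Of 14 genes of methylthioadenosine salvage, polyamine synthesis and PRMT5 activity, none was called, with 6 positive, 8 negative and a median log2 change of -0.030. SRM, the spermidine synthase whose reaction yields the MTAP substrate, stood at 323 ± 5.53 CPM in wildtype against 291 ± 21.1 CPM in knockout libraries (SD, n = 3), a log2 change of -0.15 (edgeR adjusted p = 0.0608). The transcript is GC-rich at 63.7%, and after GC correction the log2 change was -0.044 (edgeR adjusted p = 0.446). SRM was called without knockout replicate 3 (-0.21, adjusted p = 3.30e-07), with no filter (0.000171) and by DESeq2 (0.0403), and the alternatives reached up to 0.686. PRMT5 went from 322 ± 2.75 to 304 ± 3.25 CPM (SD, n = 3; log2 change -0.086, edgeR adjusted p = 0.110), with no overlap of the groups, and was called without knockout replicate 3 (adjusted p = 0.0326). After GC correction PRMT5 had -0.070 (edgeR adjusted p = 0.109).

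**Figure D5:**
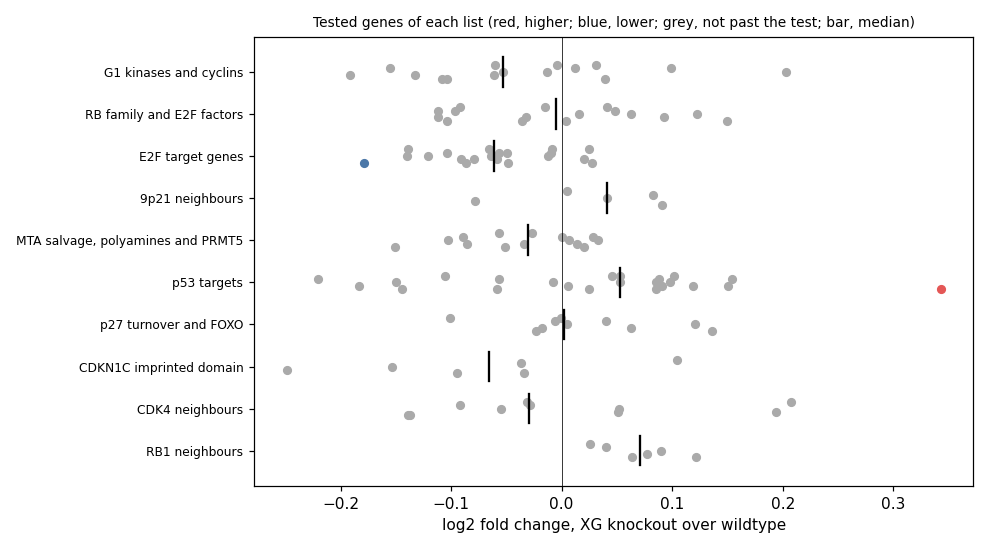
Log2 fold change of XG knockout over wildtype (horizontal axis) for every tested gene of each list (1 point a gene; black bar, list median), with called genes in red (higher) or blue (lower). SESN2 among the p53 targets and TK1 among the E2F targets are the called genes; list medians lie between -0.066 and 0.071.

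The protein-coding genes whose levels followed CDKN1A most closely over the 6 libraries were INPP5D, HS2ST1, MRAS, XIAP and ELOA, with Pearson correlations of log2 CPM of 0.995, 0.993, 0.992, 0.991 and 0.988. These are the highest of all tested protein-coding genes and describe 6 points that form 2 genotypes, so they carry no p-value. INPP5D, an inositol phosphatase, was at 4.09 ± 0.117 CPM in wildtype libraries and 4.90 ± 0.0741 CPM in knockout libraries, and MRAS, a small GTPase, at 1.91 ± 0.122 and 2.62 ± 0.0572 CPM (SD, n = 3). Their log2 changes were 0.26 and 0.46. HS2ST1, XIAP and ELOA had 0.12, 0.069 and 0.064. None of the 5 passed the test (edgeR adjusted p = 0.248, 0.150, 0.114, 0.353 and 0.259 for INPP5D, MRAS, HS2ST1, XIAP and ELOA).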

How the data were processed

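The samples were 6 TC-71 libraries prepared by a strand-preserving mRNA protocol, per the labels, 3 wildtype and 3 XG knockout, grouped by their titles. The 10 genes and the gene lists were chosen with earlier results of these data known. The authors deposited whole fragment counts for each gene from featureCounts (Subread 2.0.1) by strand on GENCODE 33 exons, per the file headers, after alignment with STAR 2.7.6a to GRCh38, per the submitters' processing notes. Fragments that match several genes or several places were not counted, per the file headers, which lowers MTAP. The authors' deposited table also gives log2 fold changes with standard errors and p-values; the submitters' processing notes name DESeq2 1.38.3. Its direction was checked against the counts: 99.15% of tested genes had the same sign.

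Genes passing filterByExpr (minimum count 10, minimum total 15) were scaled by TMM and tested with edgeR 4.0.16 (two-sided quasi-likelihood test without covariates; R 4.3.3), and p-values were adjusted by Benjamini-Hochberg over 14425 genes. CPM use library sizes multiplied by the TMM factors, and correlations used log2 CPM with a prior count of 2. Each standard error is the size of the log2 fold change divided by the root of its F value. At this depth the median standard error of a log2 fold change was 0.0636. Intervals are 95%. Levels per kb divide CPM by exon bases not shared with another gene of the same strand. Alternatives were RLE and upper quartile scaling, DESeq2 1.42.0, limma voom (limma 3.58.1), no filter, a floor of 100 counts in 3 libraries, a replicate block, omission of each library in turn, a threshold of 0.01 and a GC correction that removed a lowess trend (span 0.5) on transcript GC content (GENCODE 29; 99.54% of tested genes had a value). Knockout replicate 3 alone and the GC correction with each library left out were chosen after seeing the data. The named genes are the 10 genes, called genes of each list (at most 4), or up to 2 by smallest p where none was called, neighbours and overlapping genes at 9p21, CDK4 and RB1, the 5 genes most like CDKN1A, and XG and the markers as checks. Gene lists were described by counts and medians, without set tests. The fits were tested on simulated data with 50 changed genes at each fold. They recovered 4% of these genes at a fold of 1.1, 54% at 1.2, 72% at 1.5 and 86% at 2. Of 114 genes called in the simulation, 6 were false.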

Additional observations from a re-analysis of the deposited data

How the results depend on the processing

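Of the 9 tested genes, CDKN1A was called in each alternative other than the fits without wildtype replicate 1 or 2; leaving out 1 library gave between 0 and 2 called genes of the group, and the 2 without knockout replicate 3 were CDKN1A and RB1. The number of all genes past the threshold, 196, was 647 with no filter, 339 with GC correction (157 higher and 182 lower, against 64 and 132), 33 at an adjusted p of 0.01 and 125 with knockout replicate 3 alone. Leaving out 1 library gave 18 to 1851 genes, the most without knockout replicate 3. With GC correction as well, leaving out 1 library gave 131 to 393 (386 without knockout replicate 3). The replicate block left 37 genes and kept CDKN1A (edgeR adjusted p = 0.0435); SESN2 (0.0537) and TK1 (0.111) were not called with it. Same-numbered libraries correlated at -0.0758, -0.326 and -0.181 in their deviations from the group means, which gives no sign of pairing. With 3 libraries a group, these values cannot show that the libraries were not paired. Several uncalled genes changed sign. CDKN1C had a log2 change of -0.016 with limma voom, and leaving out 1 library gave -0.16 to 0.28 for it, -0.068 to 0.31 for CDKN2B and -0.0045 to 0.065 for CDKN1B. With GC correction CDKN2C had 0.0030, CDKN2D 0.047 and CD81 0.022, and with the replicate block as well 0.0033, 0.047 and 0.024. With knockout replicate 3 alone CDKN2C had 0.012 and SUCLA2 -0.0051. Each cause was not tested. With 1 knockout library the spread comes from wildtype alone, and that 1 library is taken to vary as they do. Depth limits CDKN1C, CDKN2B and CDKN2A, whose fragments numbered 17 to 44, 5 to 15 and 1 to 6 a library.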
